A study of Xenopus laevis with 12 samples.

Results

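The Hox cluster genes of the frog Xenopus laevis were taken by name, as every row of either deposited table that begins with hoxa, hoxb, hoxc or hoxd followed by a paralogue number. The rule used no measured value. It found 43 of the 19252 rows present in either table, with 36 of 18556 rows at stage 17 and 41 of 18206 rows at stage 14. Of these, 34 stood in both tables. The stage 17 table alone held 2, hoxd9.L and hoxd13.S, and the stage 14 table alone held 7, hoxa7.L, hoxa9.L, hoxa9.S, hoxa10.S, hoxc9.S, hoxd8.L and hoxd10.L. X. laevis is allotetraploid and carries most genes as 2 copies, called homeologs, 1 on the longer chromosome of a pair (.L) and 1 on the shorter (.S). The 43 rows comprised 21 .L and 22 .S copies of 27 different genes. They belonged to hoxa in 13 cases, hoxb in 12, hoxc in 9 and hoxd in 9, and covered 11 paralogue groups between 1 and 13. The RefSeq gene table of assembly Xenopus_laevis_v10.1 lists 56 such symbols, among them all 43, and the other 13 had no row in either deposited table.

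The right dorsal blastomere of wild-type 4-cell embryos was injected with 60 ng of morpholino, a synthetic antisense oligomer that blocks an RNA by base pairing. The treated arm received a morpholino against the microRNA miR-196a and its control a mismatch morpholino with altered bases. Neural crest tissue was collected at Nieuwkoop and Faber stage 17 or stage 14 and its RNA sequenced, with 3 samples per arm and stage and 12 in all. All 4 groups share the wild-type genotype and an injected morpholino, and no uninjected group was analysed here. Nothing in the labels says whether the 3 samples of an arm came from separate clutches, so p-values measure only the spread between these samples, which may be technical. The batch label repeats the stage, so batch and stage cannot be told apart.

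Hox genes encode homeodomain transcription factors. They lie in clusters in which the order along the chromosome follows the order of expression along the body axis, with low paralogue numbers in the hindbrain and high numbers in the trunk and tail. Neural crest cells carry the Hox code of the hindbrain or spinal level they leave, and the crest of the pharyngeal arches is patterned by groups 2 and 3. The miR-196 genes lie inside Hox clusters, and the microRNA is known to bind transcripts of several Hox genes of the trunk, hoxb8 and hoxc8 among them. Retinoic acid, Cdx factors and the TALE cofactors Meis and Pbx set or assist Hox expression in the neural plate.

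The authors' deposited tables give for each gene a mean normalised count over the samples of a stage, a log2 fold change, the standard error (SE) of that change, and p-values before and after adjustment. Neither headers nor labels record which arm is the numerator of the fold change. Signs are therefore given as deposited, and the arms are called the numerator arm and the denominator arm. Comparisons between stages take the numerator to be the same arm at both, which the headers and labels do not record. A positive value means more transcript in the numerator arm. The title of the series ascribes repression of immature neural ectoderm programmes to miR-196a, and sox3.L, a gene of that ectoderm, had a log2 fold change of 4.70 at stage 17 in the authors' deposited table; this was not used to name the arms. Arm means were derived here from each gene's deposited mean and fold change in the authors' tables, taking both arms to be of 1 size, and are approximate. Values per sample were not used here, so the spread between samples enters through the SE alone, and the depth of single libraries is unknown. Counts are not divided by transcript length, so levels are compared between the arms of 1 gene and not between genes, and a sum over genes is a sum of reads. The stages were normalised separately, and their levels stand side by side without a test. In bulk tissue, fewer cells of a type and less RNA per cell cannot be told apart.

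Marker genes were set beside the tissue label, although their presence alone cannot show which tissue was collected. All 14 rows of the neural crest list (such as snai2, sox10 and foxd3) were present, with authors' deposited mean normalised counts of 650.0 to 11745 at stage 17 and 68.4 to 5066 at stage 14. Their summed arm means were 39497 in the numerator arm and 81561 in the denominator arm at stage 17, where 3 rows passed an adjusted p-value under 0.05. At stage 14 the sums were 3141 and 30471 in the same order, and 13 rows passed. Of all genes, 9.96% passed at stage 17 and 8.68% at stage 14. All of the neural crest calls were negative, so the arms differed in neural crest marker levels at both stages. The part of this in the Hox values was not tested. Epidermis markers had many reads too, with sums given below.

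Hox transcripts ranged from near the lowest counts in the tables to well above their median. The authors' deposited mean normalised counts of the members ran from 1.42 to 1269 at stage 17, with a median of 21.2 against 160.0 over all rows. At stage 14 the deposited means ran from 2.13 to 2437, with a median of 12.47 against 161.9 over all rows in the authors' tables. Reads were concentrated in the hindbrain genes. Paralogue group 1, which includes hoxb1 and hoxd1, held 56.8% of all Hox normalised counts at stage 17 and 87.4% at stage 14. Group 3 held 24.7% at stage 17 and 3.02% at stage 14, and groups 6 to 13 together 1.07% and 1.79%. The 6 members with the most reads at stage 17, by deposited mean, in the authors' table were hoxb1.S, hoxd1.L, hoxc3.L, hoxd1.S, hoxb1.L and hoxa3.S. At stage 14 the 3 with the most reads were hoxd1.L, hoxd1.S and hoxb1.S, all of group 1.

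Rows near the count floor were common among the members. An arm mean of at most 3 normalised counts counted as at the floor, and a fold change of such a row is given as a lower bound against 3, since the deposited estimate rests on almost no reads in that arm. At stage 17, 14 of 36 rows (38.9%) had an arm at the floor, against 11.1% of all rows. The denominator arm alone was at the floor in 10 of them, the numerator arm alone in 1 (hoxb9.L), and both arms in 3 (hoxc13.L, hoxc13.S and hoxd13.S). At stage 14 it was 19 of 41 rows (46.3%) against 11.2% of all rows, with the denominator arm at the floor in 14 and the numerator arm in 5 (hoxa5.L, hoxb5.L, hoxb5.S, hoxc3.L and hoxc3.S). Of the members, 24 had an adjusted p-value in the authors' deposited table at stage 17 and 34 at stage 14. Another 12 at stage 17 and 4 at stage 14 had a p-value alone, with deposited means of at most 4.16 and 2.66 in the authors' tables, and none of these could be called. At stage 14, hoxa3.S, hoxb7.L and hoxd4.L had no p-value in the authors' deposited table although their means were 103.6, 12.47 and 89.3. Their deposited SEs in the authors' table, 1.98, 2.699 and 2.74, each exceeded the SE of over 99% of the 500 rows nearest in mean count. In groups 1 to 4, the SE exceeded that of over 50% of such neighbours in 17 of 17 rows at both stages. It exceeded that of over 90% of them in 8 rows at stage 17 and 13 at stage 14. In groups 6 to 13 the SE exceeded that of over 50% of neighbours in 8 of 14 rows at stage 17 and 16 of 19 at stage 14. There it exceeded that of over 90% in 1 row at stage 17 and 6 at stage 14. At stage 17, hoxc6.S and hoxd9.L carried identical values in every column of the authors' deposited table, with a mean of 1.84.

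**Figure D1:**
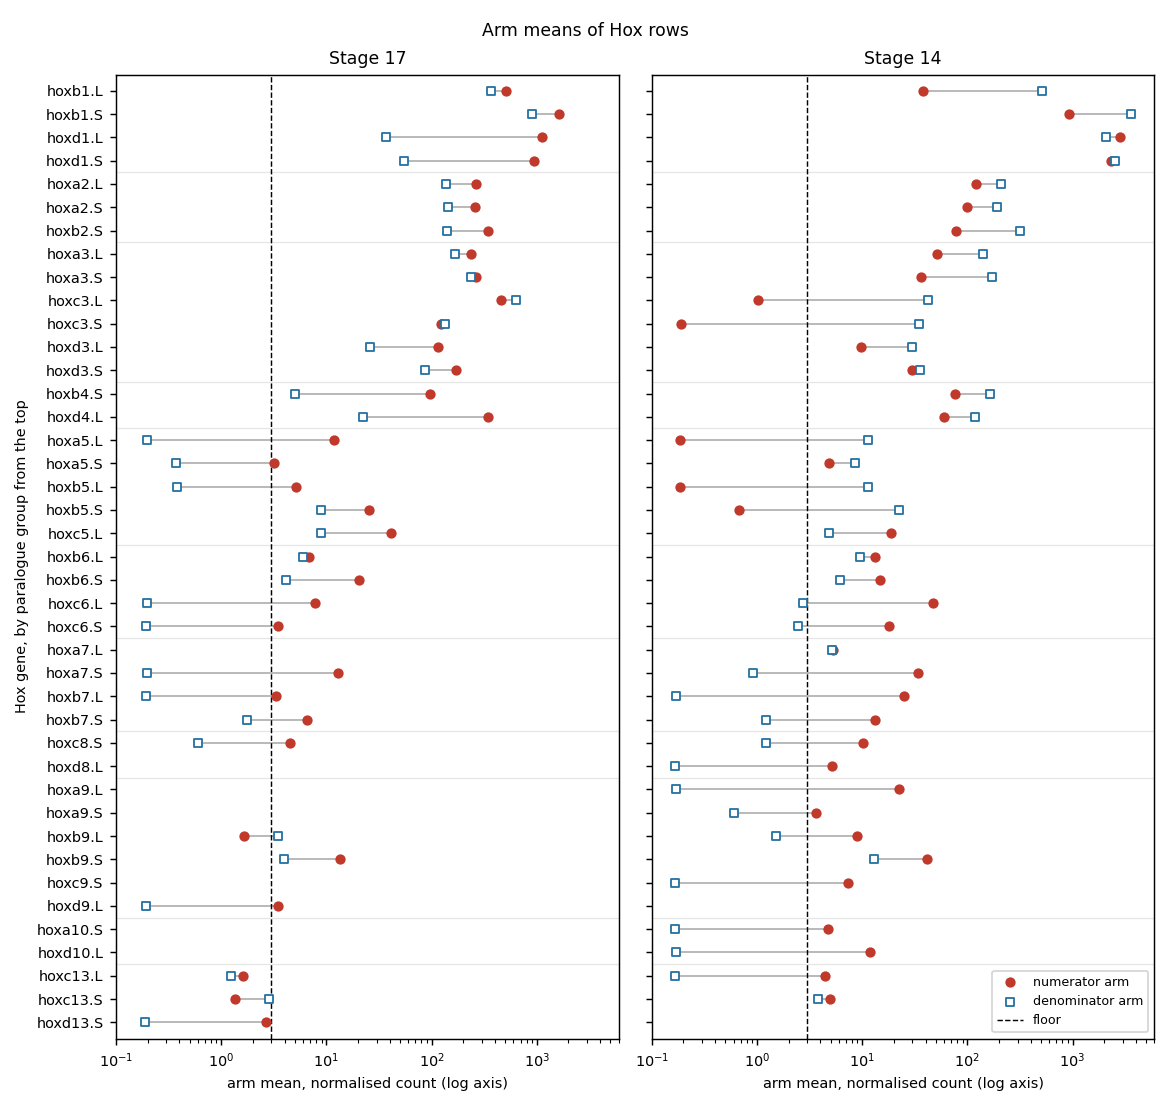
Mean normalised count of the Hox rows reported here in the numerator arm (filled) and the denominator arm (open) on a log axis, by paralogue group from the top, with stage 17 left and stage 14 right and the floor of 3 normalised counts dashed. Groups 1 to 4 lie above the floor apart from the numerator arm of hoxc3 at stage 14, while 11 of 14 rows of groups 6 to 13 at stage 17 and 14 of 19 at stage 14 have an arm at the floor.

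At stage 17 the Hox genes that passed the test were all higher in the numerator arm. Of the 24 members with an adjusted p-value, 5 (20.8%) passed 0.05, all positive, against 9.96% of all genes in either direction and 4.96% in the positive direction. They included hoxd4.L, hoxd1.S, hoxd1.L and hoxb4.S, and every call fell in paralogue groups 1 and 4. The median log2 fold change over the 36 members was 2.20, against 0.01 over all rows, and 32 of 36 (88.9%) were positive against 50.7% of all rows. Over the 22 members with both arms above the floor the median was 1.41, with 20 positive. An unadjusted p-value under 0.05 was reached by 10 of 36 members, all positive, against 19.8% of all genes.

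At stage 14 the Hox genes that passed the test were all lower in the numerator arm. Of the 34 with an adjusted p-value, 3 (8.82%) passed 0.05, all negative, against 8.68% of all genes in either direction, 5.62% in the negative and 3.06% in the positive direction. This share is near that of all genes. The 3 were hoxb1.S, hoxc3.S and hoxc3.L. In groups 1 to 5, 19 of 22 rows were negative, while in groups 6 to 13 all 19 rows were positive and none of the 14 with an adjusted p-value passed in the authors' deposited table. The division into groups 1 to 5 and 6 to 13 was chosen after the values were seen. The median over all 41 members was 0.05, against 0.02 over all rows, and it was -0.67 over the 22 with both arms above the floor. An unadjusted p-value under 0.05 was reached by 11 of 38 members, 3 positive and 8 negative, against 18.0% of all genes.

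**Figure D2:**
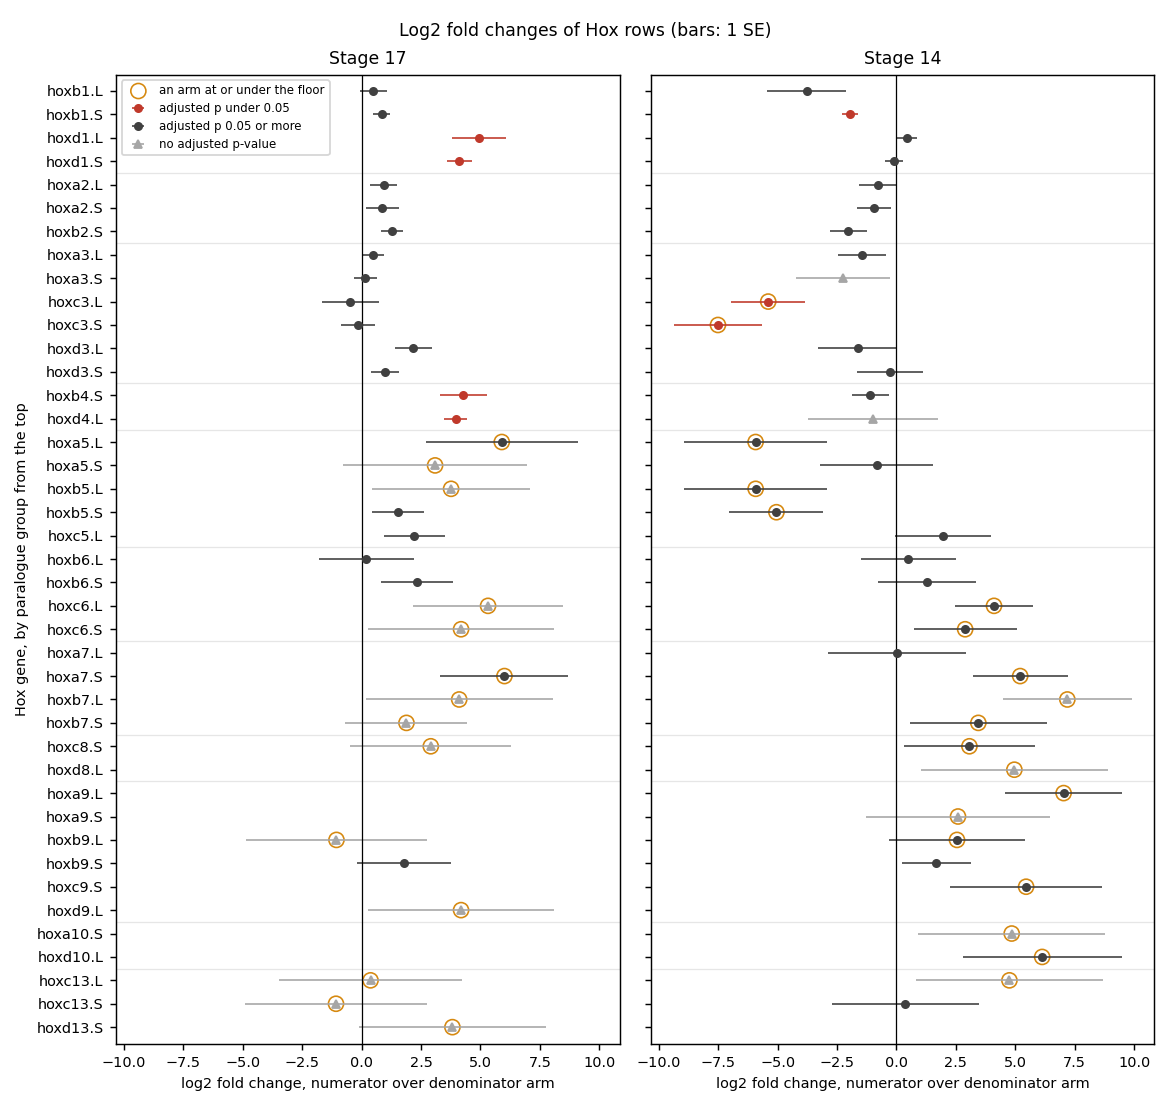
Authors' deposited log2 fold change of the Hox rows reported here with bars of 1 SE, numerator over denominator arm, by paralogue group from the top, with stage 17 left and stage 14 right; rows past an adjusted p-value of 0.05 are red and rows with an arm at the floor are ringed. At stage 17 the hoxc3 copies, hoxb9.L and hoxc13.S lie left of 0 and the other points right of it, and at stage 14 groups 1 to 5 lie mostly left of 0 and groups 6 to 13 all right of it.

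Paralogue group 1 holds the relatives of the fly gene labial, which pattern hindbrain rhombomeres. hoxd1, an early retinoic acid-responsive gene in Xenopus, gave the highest fold at stage 17 among rows with both arms above the floor. There hoxd1.L had an arm mean of 1121 in the numerator arm and 36.5 in the denominator arm, a log2 fold change of 4.94 ± 1.14 (SE) and an adjusted p-value of 5.77e-04 in the authors' deposited table. hoxd1.S had 946 and 54.6 in the same arms, with 4.11 ± 0.52 and an adjusted p-value of 2.47e-12 in the authors' deposited table. The copies were thus 30.7-fold and 17.3-fold higher in the numerator arm. Their SEs exceeded those of 99.4% (hoxd1.L) and 97.0% (hoxd1.S) of the 500 rows nearest in mean count. At stage 14 both arms were high and the copies did not pass the test. hoxd1.L had 2807 in the numerator arm and 2067 in the denominator arm, and a deposited log2 fold change of 0.44 ± 0.42 in the authors' table, with a 95% interval of -0.38 to 1.26. hoxd1.S had 2325 and 2507, and -0.11 ± 0.38 in the authors' deposited table, with an interval of -0.86 to 0.65. The denominator arm had 36.5 and 54.6 normalised counts at stage 17, against 2067 and 2507 in the stage 14 table. The numerator arm was lower at stage 17 too, with 1121 and 946 against 2807 and 2325. The stages were normalised separately, and these levels were not tested against each other.

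hoxb1 is the group 1 gene that marks a single rhombomere of the hindbrain, and its .S copy was the one row of group 1 to pass at stage 14. hoxb1.S had 1630 in the numerator arm and 908 in the denominator arm at stage 17, with 0.84 ± 0.36 and an adjusted p-value of 0.127 in the authors' deposited table. At stage 14 it had 931 and 3569, with -1.94 ± 0.33 and 5.37e-07 in the authors' deposited table, so it was 3.83-fold lower in the numerator arm. hoxb1.L had 511 and 364 at stage 17, with 0.49 ± 0.56 in the authors' deposited table. At stage 14 it had 37.6 and 514, with -3.77 ± 1.66 and an adjusted p-value of 0.158 in the authors' deposited table. The fold of the .L copy was numerically larger than that of the .S copy at stage 14 and did not pass, and its SE exceeded that of 99.0% of the 500 rows nearest in mean count. Over the whole group, arm means summed to 4639 in the numerator arm and 1449 in the denominator arm at stage 17, and to 7039 and 9802 at stage 14.

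Group 2 genes give the crest of the second pharyngeal arch its identity (hoxa2) and act in the hindbrain (hoxb2). None of the 3 rows passed at either stage by the authors' DESeq2 adjusted p-value (hoxb2.S alone had an unadjusted p-value under 0.05, at both stages), and all 3 were positive at stage 17 and negative at stage 14. hoxb2.S came nearest, with 342 in the numerator arm and 140 in the denominator arm at stage 17 and 77.4 and 315 at stage 14. Its deposited log2 fold changes in the authors' tables were 1.29 ± 0.47 (adjusted p-value 0.0569) at stage 17 and -2.02 ± 0.77 (0.0840) at stage 14. The hoxa2 copies were close to each other. hoxa2.L had 262 and 138.3 at stage 17 and 121 and 209 at stage 14, numerator arm first, and hoxa2.S had 260 and 142, then 98.9 and 190. Their 95% intervals at stage 17 were -0.22 to 2.07 for hoxa2.L and -0.45 to 2.20 for hoxa2.S, and both include 0.

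Group 3 genes act in the third pharyngeal arch and the posterior hindbrain, and hoxc3 is a member that frogs kept and mammals lost. hoxc3 passed at stage 14 in both copies. hoxc3.S had 0.19 in the numerator arm and 34.5 in the denominator arm, at least 11.5-fold lower, with an adjusted p-value of 0.00147 in the authors' deposited table. hoxc3.L had 1.01 and 42.7, at least 14.2-fold lower, with 0.00995 in the authors' deposited table. At stage 17 both arms of both copies were above 100 normalised counts, and the copies did not pass. There hoxc3.L had 456 in the numerator arm and 634 in the denominator arm (-0.47 ± 1.21 in the authors' deposited table), and hoxc3.S had 122 and 135 (-0.15 ± 0.73 in the authors' deposited table). The interval of hoxc3.L, -2.84 to 1.89, is wide for its level, since its SE exceeded that of 99.4% of the 500 rows nearest in mean count.

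The other group 3 genes did not pass at either stage. hoxd3.L came nearest, with 116 in the numerator arm and 25.7 in the denominator arm at stage 17, and a log2 fold change of 2.18 ± 0.78 with an adjusted p-value of 0.0539 in the authors' deposited table. hoxd3.S had 171 and 87.0 there. hoxa3.L had 235 and 167 at stage 17 and 51.4 and 140 at stage 14, and hoxa3.S had 264 and 237, then 36.2 and 171 without a p-value. In RefSeq the spans of hoxa3 and hoxa5, and of hoxd3 and hoxd4, overlap. Reads in these overlaps are assigned with less certainty.

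Group 4 genes mark the posterior hindbrain, and hoxb4 and hoxd4 respond to retinoic acid. Both rows of the group passed at stage 17. hoxd4.L had 343 in the numerator arm and 22.2 in the denominator arm, with 3.95 ± 0.50 and an adjusted p-value of 1.82e-12 in the authors' deposited table, the lowest of the members. The spans of hoxd3 and hoxd4 overlap, as given above, so part of its reads is assigned with less certainty. hoxb4.S had 97.3 and 5.03, with 4.27 ± 0.99 and 5.89e-04 in the authors' deposited table. Summed over both, the numerator arm was 16.2-fold higher, 441 against 27.3 normalised counts. At stage 14 hoxb4.S had 76.3 and 164 with -1.11 ± 0.78 and an adjusted p-value of 0.486 in the authors' deposited table, and hoxd4.L had 60.2 and 118 without a p-value.

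Group 5 genes mark the boundary of hindbrain and spinal cord, and their 5 rows were low at both stages. Arm means summed to 87.0 in the numerator arm and 18.7 in the denominator arm at stage 17, with 5 of 5 rows positive, and to 24.6 and 58.5 at stage 14, with 4 of 5 negative. hoxc5.L, positive at both stages, had 41.4 and 8.92 at stage 17 and 18.8 and 4.88 at stage 14. hoxb5.S had 25.5 and 8.81 at stage 17 and 0.68 and 22.4 at stage 14, which is at least 7.46-fold lower. No row of the group passed at either stage by the authors' DESeq2 adjusted p-value. An unadjusted p-value under 0.05 was reached by 0 of 5 at stage 17 and 3 of 5 at stage 14 (hoxa5.L, hoxb5.L and hoxb5.S, all negative). Over all genes the shares were 19.8% and 18.0%. At each stage 3 of the 5 rows had an arm at the floor.

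**Figure D3:**
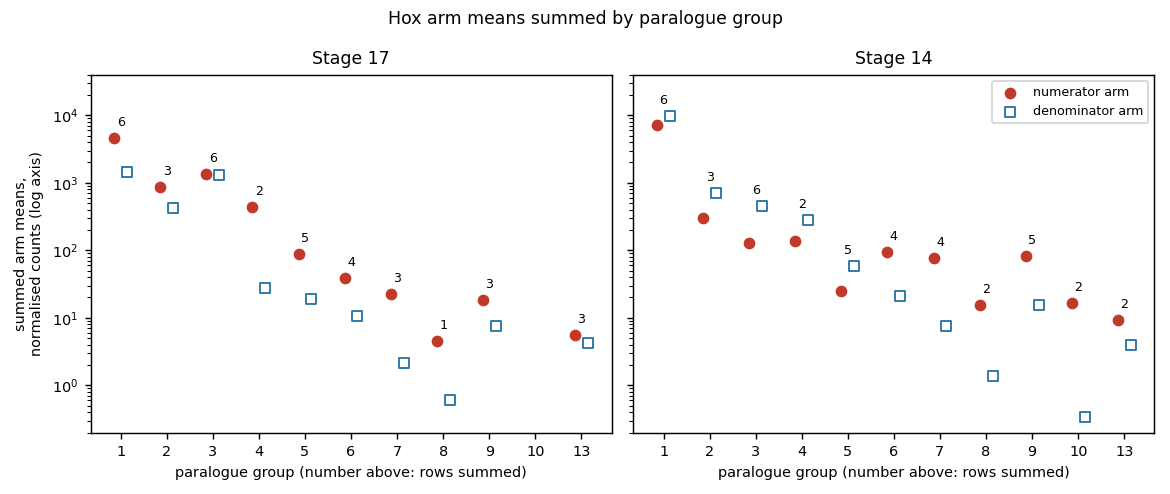
Summed arm means of each paralogue group on a log axis in normalised counts, numerator arm left of the denominator arm within a group, with stage 17 left and stage 14 right. Group 4 sums to 441 and 27.3 at stage 17, and groups 1 to 5 are lower in the numerator arm at stage 14 while the groups from 6 on are higher.

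Groups 6 to 13 act in the trunk, spinal cord and tail, and their transcripts were scarce. Their arm means summed to 89.9 in the numerator arm and 25.0 in the denominator arm at stage 17, a ratio of 3.59 over 14 rows. At stage 14 they summed to 295 and 49.3, a ratio of 5.99 over 19 rows. Signs were positive in 12 of 14 rows at stage 17 and 19 of 19 at stage 14, but 11 and 14 of these rows had an arm at the floor. With both arms above the floor, 3 rows remained at stage 17 (hoxb6.L, hoxb6.S and hoxb9.S) and 5 at stage 14 (the same 3 with hoxa7.L and hoxc13.S), all positive and none past the threshold. An unadjusted p-value under 0.05 was reached by 1 of 14 rows of groups 6 to 13 at stage 17 (hoxa7.S), against 19.8% of all genes. At stage 14 it was reached by 3 of the 18 rows with a p-value (hoxa7.S, hoxa9.L and hoxc6.L), against 18.0% of all genes. All of these rows had an arm at the floor. The sums of the rows above the floor were 40.7 and 14.0 at stage 17 and 79.4 and 37.4 at stage 14.

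hoxb9, a marker of spinal cord in Xenopus, had most reads of group 9. hoxb9.S had 13.4 in the numerator arm and 3.91 in the denominator arm at stage 17 and 41.1 and 12.9 at stage 14. Its deposited log2 fold changes in the authors' tables were 1.78 ± 1.99 and 1.67 ± 1.45, so a 95% interval at stage 14 of -1.17 to 4.51 includes 0. hoxa9.L came nearest to the threshold, with 22.2 in the numerator arm and 0.17 in the denominator arm at stage 14, at least 7.40-fold higher, and an adjusted p-value of 0.0501 in the authors' deposited table. Of group 6, an anterior trunk group, hoxc6.L had 7.86 and 0.20 at stage 17 and 47.2 and 2.75 at stage 14. hoxb6.S had 20.4 and 4.08 at stage 17 and 14.7 and 6.09 at stage 14. Of group 7, hoxa7.S had 12.8 and 0.20 at stage 17, at least 4.26-fold higher, and 33.8 and 0.92 at stage 14, at least 11.3-fold higher. Its adjusted p-values in the authors' deposited tables were 0.157 and 0.0873. The 95% intervals of its log2 fold change, 0.73 to 11.28 at stage 17 and 1.28 to 9.12 at stage 14, reach below these bounds.

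The tail genes of groups 10 and 13 were barely detected. hoxd10.L had 11.8 in the numerator arm and 0.17 in the denominator arm at stage 14, and hoxa10.S had 4.77 and 0.17. The hoxc13 copies and hoxd13.S had arm means of 0.165 to 4.93 normalised counts over both stages. None of the group 13 rows passed, and of these only hoxc13.S at stage 14 had an adjusted p-value in the authors' deposited table.

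Transcripts reported elsewhere as miR-196 targets (hoxa5, hoxa7, hoxa9, hoxb6, hoxb7, hoxb8, hoxc6, hoxc8 and hoxd8) formed a list made with earlier results of these data known. They gave 10 rows at stage 17 and 14 at stage 14. hoxb8, which is not among the 56 RefSeq symbols, had no row at either stage, and hoxa9 and hoxd8 had rows at stage 14 only. None passed at either stage by the adjusted p-values of the authors' deposited tables, which 4 rows had at stage 17 and 11 at stage 14. Of all genes, 9.96% and 8.68% passed. An arm was at the floor in 8 and 10 rows. An unadjusted p-value under 0.05 was reached by 1 of 10 rows at stage 17, positive, against 19.8% of all genes. At stage 14 it was reached by 4 of 13, 3 of them positive, against 18.0% of all genes. All of these had an arm at the floor. The arm means of the list summed to 80.7 in the numerator arm and 13.8 in the denominator arm at stage 17, and to 217 and 50.3 at stage 14. hoxc8.S, a trunk gene, had 4.48 and 0.60 at stage 17 and 10.3 and 1.22 at stage 14. A row named xhoxc8, which RefSeq pairs with the synonym Hoxc8, lies outside the naming rule. It had 23.1 in the numerator arm and 0.17 in the denominator arm at stage 14, at least 7.72-fold higher, with an adjusted p-value of 0.0604 in the authors' deposited table. At stage 17 both its arms were at the floor.

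By cluster, the arms differed most in hoxd at stage 17 and in hoxb at stage 14. The hoxd arm means summed to 2704 in the numerator arm and 226 in the denominator arm at stage 17, a ratio of 11.9, with 7 of 7 rows positive and 3 of 5 past the threshold. Over the whole table, 50.7% of rows were positive and 9.96% of genes passed in either direction. The hoxd calls were the hoxd1 copies and hoxd4.L, and 2 of the 7 rows had an arm at the floor. At stage 14 hoxd summed to 5249 and 4759, most of it from hoxd1. The hoxb rows summed to 2664 and 1446 at stage 17 and to 1240 and 4627 at stage 14, and hoxb1.S carried most of these reads. The hoxa rows summed to 1479 and 770 at stage 17 and to 1320 and 1880 at stage 14. hoxc was the cluster with a lower numerator sum at stage 17, 638 against 783, and hoxc3.L made up most of it. At stage 14 hoxc summed to 112 and 92.6. These sums have no test, since their rows come from the same libraries.

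The copies of most Hox genes had the same sign. Both copies were measured for 14 Hox genes at stage 17, and 12 pairs shared their sign, against 66.5% of all pairs in the table. The exceptions, hoxb9 and hoxc13, had arms at the floor. At stage 14 it was 14 of 16 pairs against 62.9% of all pairs, and in hoxd1, an exception, neither copy passed the test. With all arms above the floor, 8 of 8 pairs shared their sign at stage 17 and 5 of 7 at stage 14. At stage 17, 88.9% of the members were positive, so a shared sign there does not by itself show that copies go together. The same limit holds at stage 14, where signs mostly followed the paralogue group, which copies share. There 19 of 22 rows of groups 1 to 5 were negative and 19 of 19 of groups 6 to 13 positive. No pair differed in log2 fold change by more than 1.96 SE at either stage. The widest gap with both copies above the floor was -2.13 (.L minus .S, 95% interval -7.03 to 2.78) for hoxb6 at stage 17 and -1.83 (-5.15 to 1.48) for hoxb1 at stage 14. These intervals are wide, so unequal response of the copies is not shown and not bounded closely. By reads, the .S copy of hoxb1 had 2.90 times the mean count of the .L copy at stage 17 and 8.16 times at stage 14, while hoxc3.L had 4.25 times that of hoxc3.S at stage 17. Reads of near-identical copies could have been split between them, and copies share their libraries.

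The stages were set against each other gene by gene, by the difference of the deposited log2 fold changes over the root of their summed squared SEs, with a two-sided normal p-value adjusted over 16194 genes. Of the 22 members with an adjusted p-value at both stages, 6 (27.3%) passed 0.05, against 1.51% of all genes. All 6 were more positive at stage 17, as were 1.30% of all genes. An unadjusted p-value under 0.05 was reached by 13 of 22, against 8.58% of all genes. hoxc3.S differed by 7.36 ± 1.995 (adjusted p-value 0.0219), hoxb4.S by 5.38 ± 1.26 (0.00364) and hoxd1.L by 4.50 ± 1.21 (0.0209) by this normal test. hoxd1.S differed by 4.22 ± 0.65 (1.98e-07), hoxb2.S by 3.32 ± 0.90 (0.0225) and hoxb1.S by 2.78 ± 0.49 (1.03e-05). They came from paralogue groups 1 to 4 and from the hoxb, hoxc and hoxd clusters.

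The 6 genes differed in which stage held the call. hoxd1 and hoxb4 had a positive call at stage 17 and no call at stage 14. hoxb1.S and hoxc3.S had a negative call at stage 14 and no call at stage 17, and hoxb2.S had neither, with opposite signs. The hoxc3.S estimate rests on a numerator arm at the floor at stage 14, and with that fold at its bound the difference is 3.37, without a test. Of the 22 members, 13 (59.1%) were negative at stage 14 and positive at stage 17, against 17.3% of all genes tested at both stages. Another 7 were positive at both stages and 2, the hoxc3 copies, negative at both. The difference was positive in 21 of 22, and hoxb6.L was the exception at -0.30. Across these 22 genes the log2 fold changes of the stages had a Spearman correlation of 0.446, against 0.464 over the 16194 genes, as a description of points that share their libraries. Stage, batch and separate normalisation cannot be told apart in this difference, which also takes the numerator to be the same arm at both stages.

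**Figure D4:**
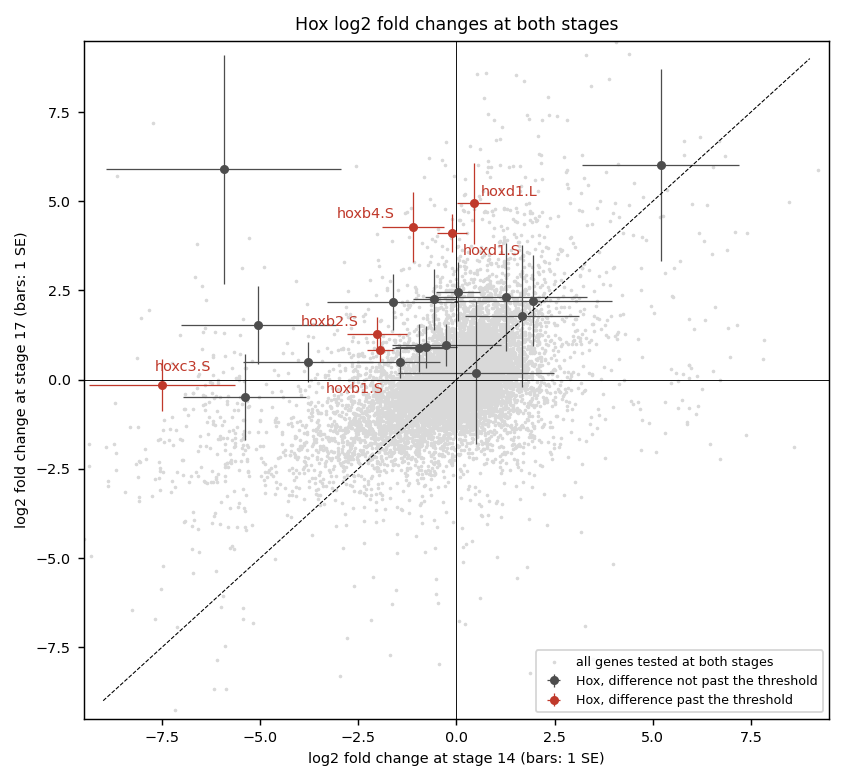
Authors' deposited log2 fold change at stage 17 (vertical) against stage 14 (horizontal) for the 22 Hox genes with an adjusted p-value at both stages, with bars of 1 SE, over all 16194 genes in grey (points beyond the axes are not drawn) and the line of equal values dashed. The 6 named genes, past the threshold for the difference, lie above the line, as do 21 of the 22.

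Cofactors and upstream genes were read from lists made with earlier results of these data known. Of the TALE cofactors, which bind DNA with Hox proteins, 2 of 12 passed at stage 17 and 0 of 13 at stage 14 by the authors' DESeq2 adjusted p-value (9.96% and 8.68% of all genes). Both calls were copies of meis3, a hindbrain inducer in Xenopus. meis3.L had 4359 in the numerator arm and 660 in the denominator arm, with 2.72 ± 0.32 and an adjusted p-value of 1.23e-14 in the authors' deposited table. meis3.S had 2765 and 720, with 1.94 ± 0.26 and 2.26e-11 in the authors' deposited table. No pbx or pknox row passed at either stage. At stage 14 an unadjusted p-value under 0.05 was reached by 4 of 13 rows, 1 of them positive, against 18.0% of all genes.

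The upstream activator list also holds the cyp26 enzymes, which degrade retinoic acid. Of its rows, 7 of 17 passed at stage 17, all positive, and 4 of 21 at stage 14, 2 in each direction. These are 41.2% and 19.0% of the list, against 9.96% and 8.68% of all genes. The positive calls at stage 17 held genes of the retinoic acid pathway, but not all of its rows on the list passed or were positive. aldh1a2.L, an enzyme of retinoic acid synthesis, had 59.3 in the numerator arm and 153.9 in the denominator arm. Its log2 fold change was -1.38 ± 0.66, with an adjusted p-value of 0.203 in the authors' deposited table. aldh1a2.S was positive at 1.32 and did not pass. cyp26a1.S, an enzyme that degrades retinoic acid, had 1592 in the numerator arm and 133 in the denominator arm, with 3.58 ± 0.47 and an adjusted p-value of 1.25e-11 in the authors' deposited table. cyp26a1.L had a log2 fold change of 1.83 in the authors' deposited table. rara.S, a retinoic acid receptor, had 1038 in the numerator arm and 367 in the denominator arm, with an adjusted p-value of 8.39e-04 in the authors' deposited table. Others, named after their values were seen, were rarg.S at 1.15 and cyp26c1.L at 0.99 in the authors' deposited table.

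At stage 14 the upstream calls went both ways. mafb, a gene of the posterior rhombomeres that regulates group 3 genes in mouse, was lower in the numerator arm in both copies. mafb.L had 66.1 in the numerator arm and 1554 in the denominator arm, with -4.55 ± 0.97 in the authors' deposited table, and mafb.S had 12.2 and 570, with -5.54 ± 1.80 in the authors' deposited table. mafb also marks neural crest, whose marker list was lower in the same arm. cdx4.S, an activator of trunk Hox genes, was higher, with 1224 and 89.9 and a log2 fold change of 3.77 ± 1.24 in the authors' deposited table. All 6 cdx rows were positive at that stage and 1 of the 6 passed. At stage 17 all 4 cdx rows were positive and 0 passed by the authors' DESeq2 adjusted p-value. There cdx4.L came nearest (0.0618) and cdx4.S had no p-value. Groups 6 to 13 were positive too at stage 14, with an arm at the floor in 14 of 19 rows, and a link to the cdx rows was not tested. rarg.S, named after its values were seen, had 0.68 at stage 14 in the authors' deposited table.

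**Figure D5:**
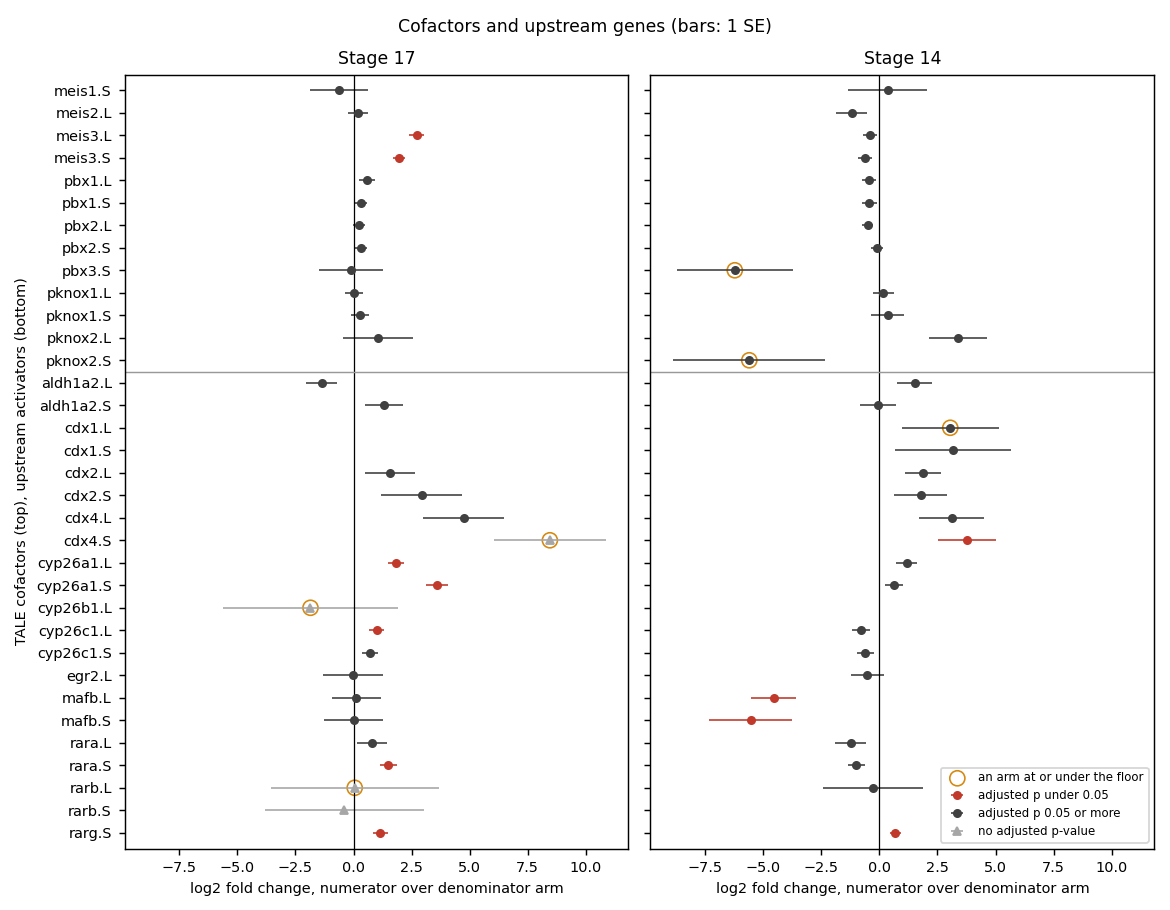
Authors' deposited log2 fold change with bars of 1 SE, numerator over denominator arm, with stage 17 left and stage 14 right. TALE cofactors are at the top. The upstream activator list, which includes enzymes that degrade retinoic acid, is at the bottom. Rows past an adjusted p-value of 0.05 are red and rows with an arm at the floor are ringed. meis3.L and meis3.S (2.72 and 1.94) pass at stage 17 and not at stage 14, and the mafb copies pass at stage 14 and not at stage 17.

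Polycomb and Trithorax proteins keep Hox clusters silent or active through chromatin. Of their list, 5 of 33 passed at stage 17, all positive, and 2 of 35 at stage 14, 1 in each direction. The shares, 15.2% and 5.71%, stand beside 9.96% and 8.68% of all genes, so that at stage 14 the share was below that of all genes. gmnn.S, which binds Hox and Polycomb proteins, had 4722 in the numerator arm and 998 in the denominator arm at stage 17 and 9990 and 3222 at stage 14, and passed at both, with log2 fold changes of 2.24 and 1.63 in the authors' deposited tables. kdm6b.S, a demethylase of the Polycomb mark, had -1.21 at stage 14 in the authors' deposited table. Other Polycomb rows at stage 17, named after their values were seen, were ezh2.L at 0.75, eed.L at 0.85, eed.S at 0.78 and cbx2.S at 1.26 in the authors' deposited table, and all 3 genes encode Polycomb subunits.

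Genes next to the clusters, the 5 nearest per side in RefSeq of each cluster, were set beside the members. Of 67 such rows at each stage, 9 of 64 passed at stage 17 (5 positive and 4 negative) and 5 of 63 at stage 14 (1 positive and 4 negative). These are 14.1% and 7.94%, against 9.96% and 8.68% of all genes. Their median log2 fold change was 0.21 at stage 17 and 0.01 at stage 14, against 2.20 and 0.05 for the Hox members. An arm was at the floor in 5 and 8 of the flanking rows, against 14 of 36 and 19 of 41 Hox rows. Over the 22 Hox rows per stage with both arms above the floor, the medians were 1.41 and -0.67. At stage 17 mtx2.L, which borders hoxd, was positive at 2.62, and atp5mc3.S at 1.02 in the authors' deposited table. nfe2l2.L was negative at both stages, at -3.45 at stage 17 in the authors' deposited table and, with its numerator arm at the floor, at least 36.6-fold lower at stage 14. tril.L was negative too, at -1.52 and -2.51 in the authors' deposited tables. At stage 14 tax1bp1.S was positive at 1.14, and nfe2l3.L at -1.76 and tril.S at -2.89 were negative in the authors' deposited table. The evx genes, homeobox genes at the cluster ends, gave 2 rows at stage 17, of which 0 passed by the authors' DESeq2 adjusted p-value and 0 had an unadjusted p-value under 0.05, and no row at stage 14.

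Markers of other tissues were set beside the Hox values. Hindbrain markers (egr2 and mafb) summed to 7005 in the numerator arm and 6729 in the denominator arm at stage 17, with 0 of 3 rows past the authors' DESeq2 threshold and 0 under an unadjusted p-value of 0.05, and to 143 and 2216 at stage 14, with 3 of 3 rows negative and 2 of them past the threshold. Markers of the anterior neural plate summed to 1360 and 482 at stage 17 and to 3542 and 997 at stage 14. Of the 5 rows with an adjusted p-value at each stage, 2 and 3 were positive past the threshold, against 9.96% and 8.68% of all genes passing in either direction. Thus the hindbrain list was lower in the numerator arm at stage 14, where groups 1 to 5 were mostly negative. Most of that difference came from the mafb copies, and mafb also marks neural crest. egr2.L, the other hindbrain row, had 64.9 and 92.7 there, with an adjusted p-value of 0.798 in the authors' deposited table. The anterior neural list had a higher sum in the numerator arm at both stages. Its rows were positive in 6 of 6 at stage 14 and in 4 of 6 at stage 17, where six3.L (-0.21) and six3.S (-0.24) were negative and did not pass in the authors' deposited table. Tailbud and posterior mesoderm markers summed to 1232 and 416 at stage 17, with 2 positive and 1 negative calls, and to 4088 and 1691 at stage 14, with 1 positive call. Epidermis markers summed to 17368 and 63938 at stage 17 and to 5963 and 42104 at stage 14, with 3 and 4 negative calls. The tailbud sums rest on the cdx4 copies, also counted among the upstream activators, at stage 14. Without them the list summed to 902 in the numerator arm and 408 in the denominator arm at stage 17, and to 1060 and 1393 at stage 14. tbxt.S, a posterior mesoderm gene, was the negative call at stage 17, at -2.98 in the authors' deposited table. Epidermis sums were lower in the numerator arm at both stages. Muscle markers were near the floor, at 19.5 and 4.99 at stage 17 and 17.5 and 18.0 at stage 14, and endoderm markers summed to 39.1 and 35.0, then 38.0 and 33.2. The part of these tissues in the Hox values was not tested.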

How the data were processed

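Only 2 tables of the authors' own comparisons were analysed, 1 per stage. STAR 2.7.3a and DESeq2 are named, without their role, in the submitters' processing notes, and the genome build, annotation and filters are not given in the sources used here. Per the file headers, the authors deposited for each gene a mean normalised count (a signal scaled between libraries), a log2 fold change, its SE on the log2 scale, the ratio of the pair (a test score), and p-values raw and adjusted. The adjusted p-values at stage 14 rest on the 17088 genes of the table, and those at stage 17 on 22197 genes, more than the 18556 named rows read here. Shares of all genes past an adjusted p-value are over 17088 genes at stage 14 and 16965 at stage 17. The stage 17 shares thus leave out the other genes behind the adjustment. Libraries were unstranded, per the labels.

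Members and gene lists were chosen with earlier results of these data known. Arm means, floors, sums and medians were computed here with Python 3.11.15, pandas 2.3.3, NumPy 2.4.6 and SciPy 1.17.1, and figures drawn with matplotlib 3.10.9. A log2 fold change was called at an authors' adjusted p-value under 0.05, and 95% intervals are the estimate ± 1.96 SE. Counts per sample were not used here, so the edgeR test planned for such counts was replaced by the authors' deposited p-values. The stage difference used a two-sided normal test with Benjamini-Hochberg adjustment. It was run on simulated data with normal errors drawn from the deposited SEs, as the test itself takes them. Its behaviour on counts from 3 samples per arm or on rows at the floor was therefore not tested. Members named in full were those past a threshold, those with the 10 highest means per stage and some, not all, copies of reported targets. From the lists they were up to 10 genes per stage with the lowest p-values past 0.05. Alternatives were other thresholds, minimum means, treatment of the floor and combined homeologs. Some genes of the member and upstream lists are counted in totals and not reported here by name.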

Additional observations from a re-analysis of the deposited data

Results flagged for a closer look

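Each result below stands here because its log2 fold change differed between stages past an adjusted p-value of 0.05 in the normal test over 16194 genes. All were more positive at stage 17. Among the Hox genes the difference (stage 17 minus stage 14) was 7.36 for hoxc3.S (3.37 with its stage 14 fold, whose numerator arm is at the floor, set to the bound), 5.38 for hoxb4.S, 4.50 for hoxd1.L, 4.22 for hoxd1.S, 3.32 for hoxb2.S and 2.78 for hoxb1.S. Of the TALE cofactors it was 3.14 for meis3.L and 2.58 for meis3.S. On the upstream activator list it was 2.95 for cyp26a1.S, 2.49 for rara.S and 1.79 for cyp26c1.L. The cyp26 enzymes on that list degrade retinoic acid.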

How the results depend on the processing

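The Hox calls numbered 5 at stage 17 and 3 at stage 14. At an adjusted p-value under 0.10 they were 8 and 7, and with both arms above the floor, an alternative chosen after seeing the data, 5 and 1 (hoxb1.S). The stage 14 median of 0.05 became -0.67 without rows at the floor, -0.56 over rows with a mean of at least 10, 0.89 with homeologs averaged and 0.21 with xhoxc8 (added after seeing the data), and the stage 17 median of 2.20 became 0.90 with floor rows at their bound. Adjusting over genes with a mean of at least 10 added hoxd3.L (0.0485) at stage 17 and hoxa9.L (0.0462) at stage 14. Combining copies, as if independent, called 6 genes at stage 17 and 4 at stage 14, where hoxc6 was positive. List calls, 23 and 11, were 14 and 5 at an adjusted p-value under 0.01, and 17 at stage 14 under 0.10. The same 6 Hox genes passed the stage difference under all 3 of its alternatives. Of the other alternative values, none changed direction, and counts stayed within 1.5 times those reported. Leaving out replicates, edgeR scaling and levels per kilobase were not run, since values per sample and transcript lengths were not used here. No paired analysis was possible because the sample numbers in the titles are not shared between groups. Low counts limit groups 6 to 13: an arm was at the floor in 11 of their 14 rows at stage 17 and 14 of 19 at stage 14.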
